A study of Mus musculus with 6 samples.

Results

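The genes described here are 9 cadherins other than VE-cadherin: Cdh1, Cdh2, Cdh3, Cdh4, Cdh6, Cdh11, Cdh13, Cdh15 and Cdh19. They were taken by symbol from a table of 23940 genes, and all 9 symbols were found. RNA had been sequenced from the CD45-negative cells of 6 YUMM1.7 tumours grown in C57BL/6 mice, in groups that differ in treatment. The on-BRAFi group is 3 tumours that remained under a BRAF inhibitor, which the labels call residual. The pre-treatment group is 3 tumours that had received no inhibitor of the MAPK pathway. YUMM1.7 is a single mouse melanoma line with an activating Braf mutation, so both groups share that line's genotype, the host strain and the sort. The sort removes leukocytes and keeps tumour cells, fibroblasts, vessel cells and other host cells together. Which inhibitor was used, its dose, how long it was given and how old the mice were is not stated in the labels. They number the tumours without saying that each came from its own mouse, and each p-value refers to the spread among the 6 tumours, whatever its source.

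Cadherins are calcium-dependent adhesion proteins that bind a cadherin on a neighbouring cell through their outer domains. The cytoplasmic tail of a classical cadherin binds beta-catenin and Ctnnd1, and alpha-catenin joins the complex to actin. Of the 9 genes, Cdh1, Cdh2, Cdh3, Cdh4 and Cdh15 encode type I cadherins and Cdh6, Cdh11 and Cdh19 encode type II cadherins, which differ in the part of the outer domain that makes the adhesive contact. Cdh13 encodes T-cadherin, which is held in the membrane by a glycosylphosphatidylinositol anchor and has no cytoplasmic tail, so it is not a classical cadherin in the strict sense. In skin, melanocytes adhere to keratinocytes through E-cadherin, the product of Cdh1, and melanoma cells often carry N-cadherin, the product of Cdh2, in its place.

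Values are FPKM, fragments per kilobase of transcript, scaled between libraries by the submitters' tools and used as the authors deposited them. Levels can therefore be compared between genes on a per-length scale. The FPKM of a library summed to between 414834 and 921297, the read depth is unknown, and an exact 0 is given only as listed at 0. Genes with a mean of at least 1 FPKM over the 6 libraries were tested, 12075 in all, with limma on log2(FPKM + 0.1). A gene was called at a Benjamini-Hochberg adjusted p under 0.05. Of the defining melanocyte genes, Dct, Tyrp1 and Mlana were listed at 0 in all 6 libraries and Sox10 reached at most 0.114 FPKM. Tyr, which encodes the pigment enzyme tyrosinase, was present in every library, at 5.90, 5.99 and 3.36 FPKM in on-BRAFi tumours 1 to 3, against 3.02, 3.25 and 5.18 FPKM in pre-treatment tumours 1 to 3, with the groups overlapping. Mitf, the lineage transcription factor, was at 21.5 ± 2.16 FPKM in on-BRAFi tumours and 5.77 ± 1.40 FPKM in pre-treatment tumours (SD, n = 3 each). Of 11 melanocyte markers, 3 were tested and only Mitf was called. The summed FPKM of the 11 was 29.1 to 30.9 in on-BRAFi and 9.93 to 13.8 in pre-treatment libraries, a difference that came mostly from Mitf. Ptprc, which encodes CD45, was at 0.118 to 1.10 FPKM in on-BRAFi tumours and 0.609 to 2.18 FPKM in pre-treatment tumours. Of 5 tested leukocyte markers, 0 were called with limma and 0 had an unadjusted p under 0.05, and the summed FPKM of the 11 listed was 27.2 to 47.4 in on-BRAFi and 31.4 to 48.7 in pre-treatment libraries.

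Among the 9 genes, most of the summed FPKM in these sorted cells came from Cdh13, Cdh2 and Cdh19, with Cdh11 at a low level. Cdh13, the only gene of the 9 that was called, was about 2-fold lower in on-BRAFi tumours. The genes of the epithelial cadherins, Cdh1 and Cdh3, were at or near 0 in both groups. Only 4 of the 9 genes passed the filter and were tested, and 1 of these 4 was called, against 19.1% of all tested genes called in either direction and 10.3% called lower. The groups did not overlap for 2 of the 4, against 40.4% of all tested genes. Neither count is far from that background.

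The order of the mean levels in on-BRAFi tumours was Cdh13, Cdh2, Cdh19, Cdh11 and Cdh6, and it was the same in pre-treatment tumours. In on-BRAFi tumours the ranges of Cdh13 and Cdh2 overlapped, as did those of Cdh2 and Cdh19. In pre-treatment tumours Cdh13 lay above Cdh2 in every library without overlap, and the ranges of Cdh2 and Cdh19 overlapped again. Cdh19 lay above Cdh11 without overlap in both groups. By its mean over the 6 libraries, Cdh13 stood above 87.6% of the genes in the table, Cdh2 above 77.7%, Cdh19 above 70.9% and Cdh11 above 51.7%.

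**Figure D1:**
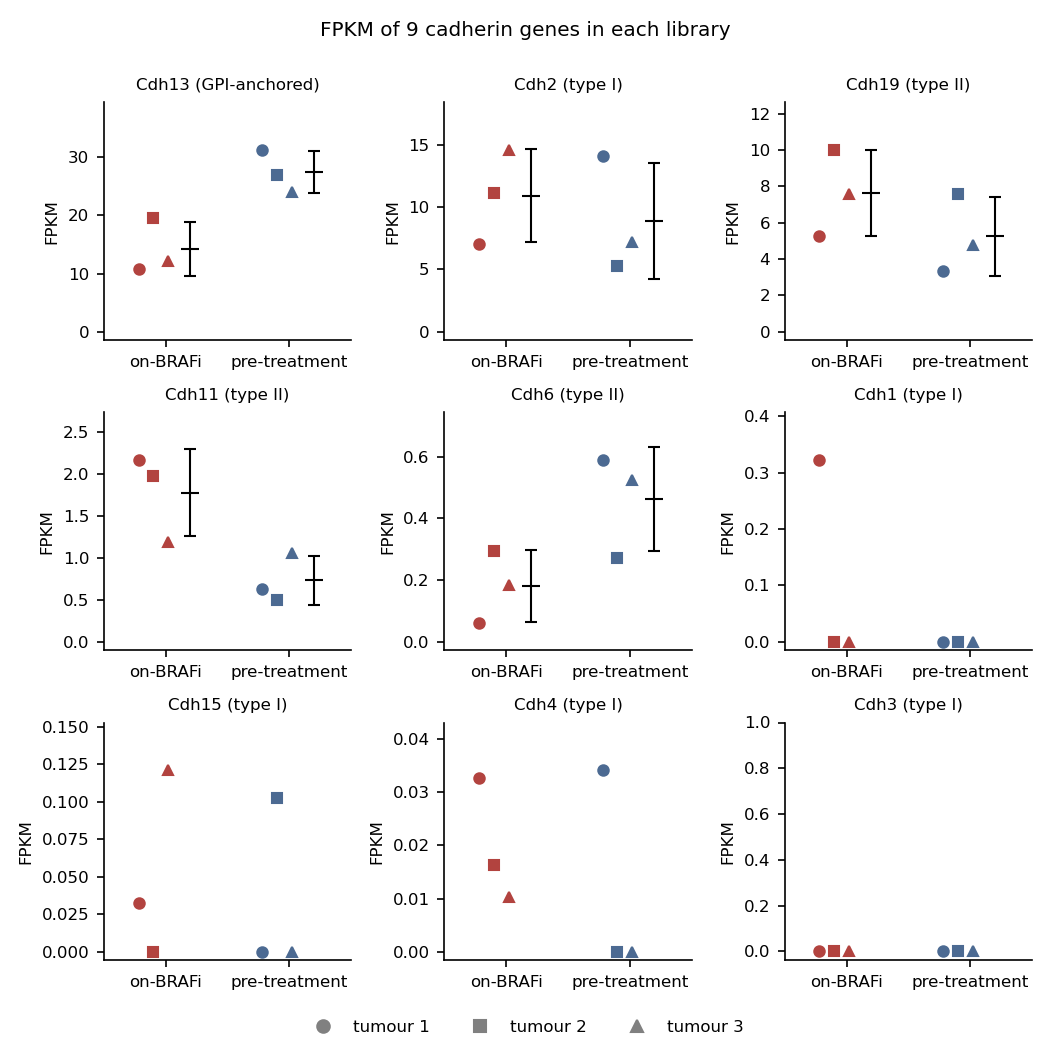
FPKM of each of the 9 cadherin genes, with a panel per gene and its own linear axis; points are libraries, with on-BRAFi at the left and pre-treatment at the right, and bars are the mean and SD for genes with no library at 0. The 3 on-BRAFi libraries lie below the 3 pre-treatment libraries for Cdh13 and above them for Cdh11, and the groups overlap or reach 0 for the rest.

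Cdh13, whose product binds adiponectin and is known from endothelium and smooth muscle, was at 10.8, 19.6 and 12.2 FPKM in on-BRAFi tumours 1 to 3, against 31.3, 27.0 and 24.0 FPKM in pre-treatment tumours 1 to 3. The highest on-BRAFi library, tumour 2, remained below the lowest pre-treatment library. The means were 14.2 ± 4.71 FPKM in on-BRAFi tumours and 27.5 ± 3.65 FPKM in pre-treatment tumours. The log2 fold change was -0.99 ± 0.26 (SE), with a 95% interval from -1.60 to -0.37, a 1.98-fold lower level (limma, adjusted p = 0.0404).

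That call lay close to its threshold. Without on-BRAFi tumour 2 the log2 fold change was -1.24 (limma, adjusted p = 0.0204), but without any other single library the call was lost. The adjusted p in those 5 fits ran from 0.0795 without pre-treatment tumour 3 to 0.128 without on-BRAFi tumour 1, with log2 fold changes from -0.82 to -1.08. When each library was rescaled to the same total FPKM, the log2 fold change was -0.44 (limma, adjusted p = 0.251, where the alternatives ran from 0.0183 to 0.251). That rescaling moved the median of all tested genes up by 0.53, whereas scaling by the median of ratios moved it up by 0.00048. At the equal total, the value of Cdh13 minus the median of all tested genes was -0.97, against -0.98 on the deposited values. Such a rescaling multiplies each library by a single number and shifts all genes by nearly the same amount. That match was therefore fixed in advance and does not test the call. The direction was negative under all 17 alternatives, but many of them could not have turned it. A changed filter, trend or block left the estimate at -0.99. Since the groups did not overlap, leaving out a library or changing the pseudocount could not turn its sign.

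**Figure D2:**
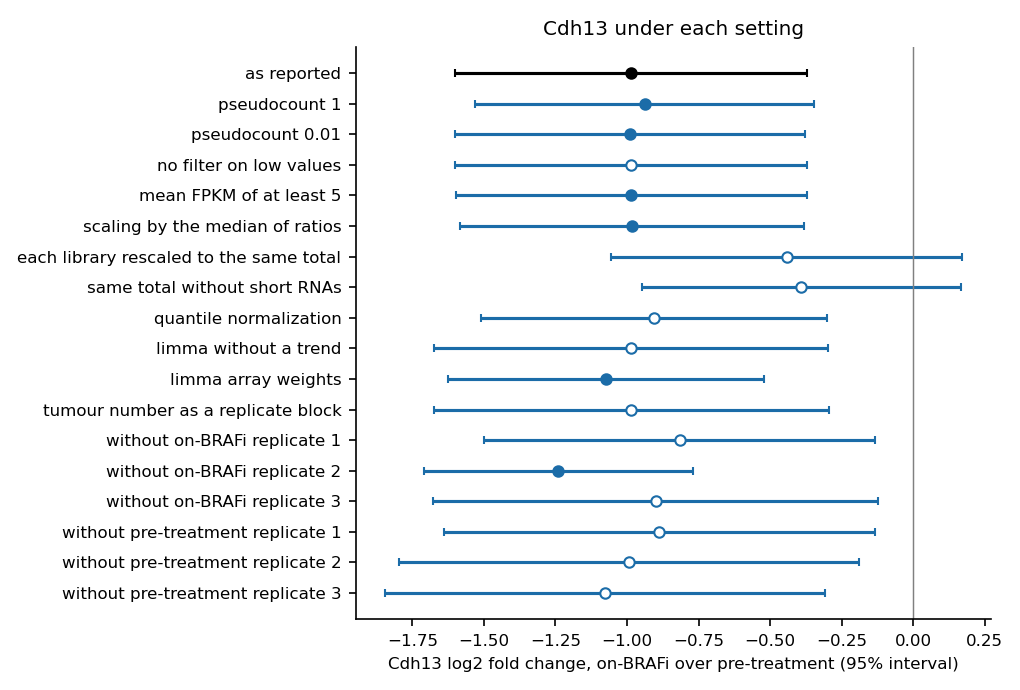
Log2 fold change of Cdh13, on-BRAFi over pre-treatment, with its 95% interval under the reported fit (top) and 17 alternatives; filled points passed the adjusted p threshold and open points did not. All estimates lie below 0, and those after rescaling to the same total are the nearest to it.

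Most of the called vessel markers, but not all, ran the other way from Cdh13. Of 11 tested endothelial markers, 7 were higher in on-BRAFi tumours and none was lower, and the summed FPKM of the 12 listed was 96.3 to 150 in on-BRAFi libraries and 42.8 to 53.9 in pre-treatment libraries. Without pre-treatment tumour 2 or any single on-BRAFi library 4 were called. Of 8 tested pericyte and smooth muscle markers, 3 were higher and 1, Cspg4, was lower, as Cdh13 was. Cspg4 was at 4.99 ± 0.85 FPKM in on-BRAFi and 11.3 ± 2.73 FPKM in pre-treatment tumours (limma, adjusted p = 0.0199). The summed FPKM of the 11 listed was 112 to 154 in on-BRAFi and 68.2 to 79.2 in pre-treatment libraries. Without on-BRAFi tumour 1, 2 markers of this list were called. Adipoq, which encodes adiponectin, was listed at 0 in 5 libraries and at 0.323 FPKM in on-BRAFi tumour 2, and Fabp4, which adipocytes and endothelium share, was at 17.99 to 157 FPKM in on-BRAFi and 1.84 to 2.85 FPKM in pre-treatment libraries. The part of these cells in the Cdh13 difference was not tested. In the bulk RNA of sorted cells, fewer cells of a type and less RNA per cell cannot be told apart.

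Cdh2 was at 7.07, 11.1 and 14.6 FPKM in on-BRAFi tumours 1 to 3, against 14.1, 5.30 and 7.16 FPKM in pre-treatment tumours 1 to 3. The groups overlapped: pre-treatment tumour 1 was nearly as high as the highest on-BRAFi library, and pre-treatment tumour 3 lay just above on-BRAFi tumour 1. The log2 fold change was 0.36 ± 0.42, with a 95% interval from -0.64 to 1.36 (limma, adjusted p = 0.578), so a change of 2-fold in the upward direction lies within the interval. Without pre-treatment tumour 1 the log2 fold change was 0.75, and without pre-treatment tumour 2 it was 0.06 (limma, adjusted p = 0.239 and 0.948).

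Cdh1 was listed at 0 in 5 of the 6 libraries and at 0.323 FPKM in on-BRAFi tumour 1. Cdh3, which encodes P-cadherin of basal epithelium, was listed at 0 in all 6. A ratio of N-cadherin to E-cadherin RNA therefore has no value in 5 libraries. Of 14 keratinocyte and epithelial markers, 6 were listed at 0 in all libraries, among them Krt14, Dsp and Trp63, and only Sfn was tested, with 0 calls and 0 at an unadjusted p under 0.05 in limma. Their summed FPKM was 2.29 to 2.99 in on-BRAFi and 2.11 to 4.96 in pre-treatment libraries.

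The other type I genes were near the bottom of the table. Cdh4, which encodes R-cadherin of retina and nerve, was at 0.0103 to 0.0327 FPKM in on-BRAFi tumours and reached 0.0342 FPKM in pre-treatment tumour 1, with 0 in the other 2 pre-treatment libraries. Cdh15, which encodes M-cadherin of skeletal muscle and its satellite cells, was at 0.0323, 0 and 0.121 FPKM in on-BRAFi tumours 1 to 3, against 0, 0.103 and 0 FPKM in pre-treatment tumours 1 to 3. Pax7 and Myod1, which define satellite cells and myoblasts, were listed at 0 in all 6 libraries. The 11 listed muscle markers summed to 3.17 to 6.60 FPKM in on-BRAFi and 4.04 to 5.11 FPKM in pre-treatment libraries, and of the 2 tested 0 were called with limma and 0 had an unadjusted p under 0.05. No difference between the groups can be read from values this low.

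Among the type II genes, Cdh19 was the most abundant. It encodes a cadherin of neural crest derivatives that is known from Schwann cell precursors and from melanoma. It was at 5.28, 10.01 and 7.58 FPKM in on-BRAFi tumours 1 to 3, against 3.35, 7.59 and 4.79 FPKM in pre-treatment tumours 1 to 3. The groups overlapped, with pre-treatment tumour 2 above on-BRAFi tumours 1 and 3. The log2 fold change was 0.56 ± 0.37, with a 95% interval from -0.31 to 1.44 (limma, adjusted p = 0.329).

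Schwann cells are another neural crest derivative that the sort could hold. Of 5 tested Schwann cell markers, 1 was higher: Pmp22, a myelin gene that fibroblasts also express, at 108 ± 24.0 FPKM in on-BRAFi and 22.1 ± 6.65 FPKM in pre-treatment tumours. Summed over the 12 listed, these markers were at 94.1 to 159 FPKM in on-BRAFi and 31.2 to 38.9 FPKM in pre-treatment libraries. The part of Schwann cells in the Cdh19 values was not tested.

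Cdh11, which encodes the cadherin of fibroblasts and osteoblasts, was at 2.17, 1.98 and 1.19 FPKM in on-BRAFi tumours 1 to 3, against 0.632, 0.501 and 1.06 FPKM in pre-treatment tumours 1 to 3. The groups did not overlap, though on-BRAFi tumour 3 lay only just above pre-treatment tumour 3. The log2 fold change was 1.19 ± 0.51, with a 95% interval from -0.02 to 2.40, and Cdh11 was not called (limma, adjusted p = 0.152). Of its alternatives, 1 gave a call: with short RNAs left out of an equal library total, the log2 fold change was 1.73 (limma, adjusted p = 0.0368, where the alternatives ran from 0.0368 to 0.282).

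Most of the listed fibroblast markers, but not all, were higher in the same libraries. Of 12 tested, 8 were higher in on-BRAFi tumours and none was lower, with a median log2 fold change of 3.06, against -0.0063 over all tested genes. The 4 not called were Pdgfra, Fap, Pdpn and Thy1, with log2 fold changes of 0.22, 0.0084, -0.41 and 2.50 (limma, adjusted p = 0.494, 0.981, 0.172 and 0.0616). The summed FPKM of the 12 was 9176 to 9922 in on-BRAFi and 1237 to 1763 in pre-treatment libraries. Col3a1 was the most abundant, at 4761 ± 128 FPKM in on-BRAFi and 531 ± 103 FPKM in pre-treatment tumours. Dcn, the proteoglycan decorin, was at 1500 ± 266 FPKM in on-BRAFi and 219 ± 126 FPKM in pre-treatment tumours. The part of fibroblasts in the Cdh11 values was not tested.

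Cdh6, which encodes K-cadherin of kidney and neural crest, was at 0.0606, 0.295 and 0.185 FPKM in on-BRAFi tumours 1 to 3, against 0.590, 0.271 and 0.526 FPKM in pre-treatment tumours 1 to 3. The groups overlapped at pre-treatment tumour 2, and the gene was under the filter and was not tested.

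The summed FPKM of the 9 genes was 25.8, 43.0 and 35.9 in on-BRAFi tumours 1 to 3, against 50.0, 40.8 and 37.6 in pre-treatment tumours 1 to 3. These sums overlapped, whereas their make-up differed, and shares within a library do not depend on how libraries were scaled. Cdh13 took 42.0%, 45.6% and 34.0% of the sum in on-BRAFi tumours 1 to 3, against 62.6%, 66.3% and 64.0% in pre-treatment tumours 1 to 3. Its share was lower in each on-BRAFi library than in any pre-treatment library. Cdh19 took 20.5%, 23.3% and 21.1% in on-BRAFi tumours, against 6.69%, 18.6% and 12.8% in pre-treatment tumours, again without overlap. Cdh11 took 8.41%, 4.61% and 3.31% in on-BRAFi tumours, against 1.26%, 1.23% and 2.82% in pre-treatment tumours, also without overlap. Cdh2 took 27.4%, 25.8% and 40.7% in on-BRAFi tumours, against 28.2%, 13.0% and 19.1% in pre-treatment tumours, and these ranges overlapped. Shares of a sum are tied to each other, so a lower share of Cdh13 alone raises the rest, and they are given as a description.

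**Figure D3:**
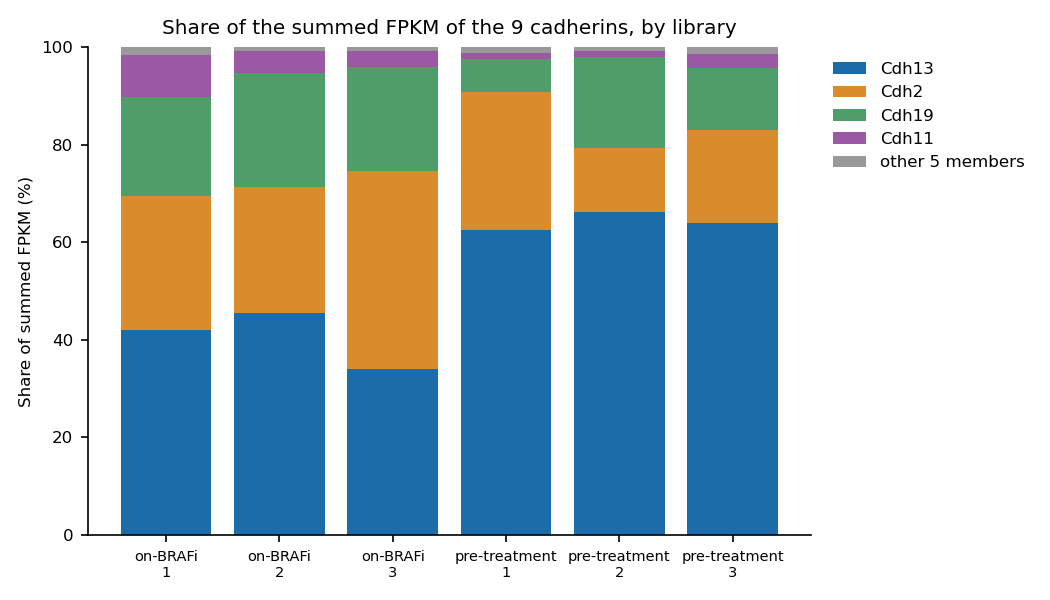
Share of the summed FPKM of the 9 cadherin genes, in percent, taken by each gene in each library, with the on-BRAFi libraries at the left. Cdh13 takes 34.0% to 45.6% in on-BRAFi libraries and 62.6% to 66.3% in pre-treatment libraries.

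Ratios between the 4 tested genes within a library were compared for all 6 pairs, a comparison that also does not depend on scaling between libraries. The FPKM ratio of Cdh13 to Cdh2 was 1.53, 1.77 and 0.836 in on-BRAFi tumours 1 to 3, against 2.22, 5.10 and 3.36 in pre-treatment tumours 1 to 3. N-cadherin RNA thus exceeded T-cadherin RNA in on-BRAFi tumour 3 and in no other library. The mean log2 ratio was 0.39 ± 0.57 in on-BRAFi and 1.75 ± 0.60 in pre-treatment tumours, a difference of -1.36. The log2 ratios of Cdh13 to Cdh19 and of Cdh13 to Cdh11 differed by -1.56 and -2.30, and the groups did not overlap in these 3 pairs. For each, the two-sided exact permutation test gave p = 0.1, the smallest that 3 against 3 libraries allow, and 0.2 after Benjamini-Hochberg adjustment over the 6 pairs. All 3 of these pairs hold Cdh13, so they are tied to each other and are not 3 separate results.

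The 3 pairs without Cdh13 overlapped between the groups. Their differences in mean log2 ratio were -0.21 for Cdh2 to Cdh19, -0.94 for Cdh2 to Cdh11 and -0.74 for Cdh19 to Cdh11 (two-sided exact permutation tests, p = 0.8, 0.3 and 0.5). The sign of the first turned without pre-treatment tumour 1, where it was 0.47. Cdh2 lay above Cdh19 in 5 of the 6 libraries, all but pre-treatment tumour 2.

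**Figure D4:**
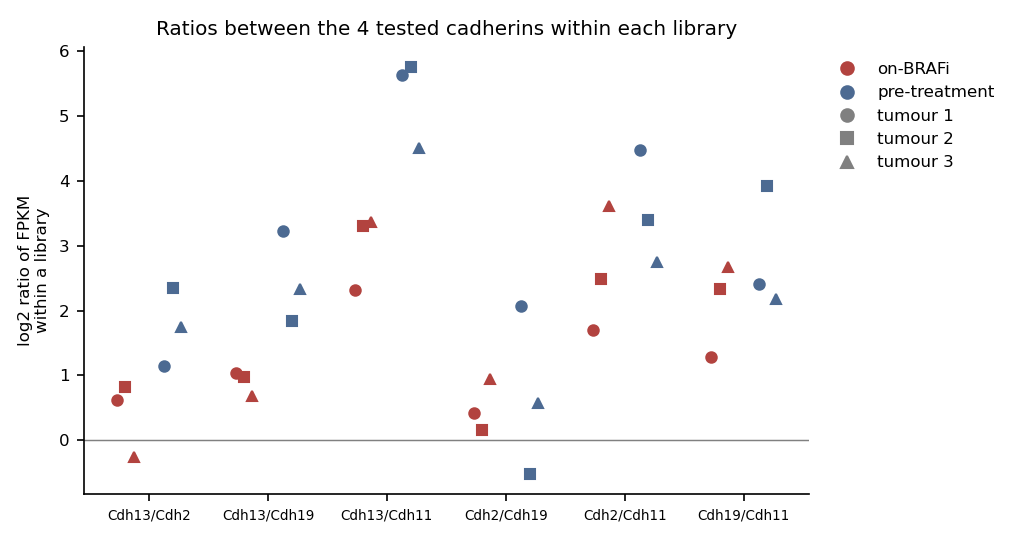
Log2 ratio of FPKM within each library for the 6 pairs of tested cadherins; points are libraries, with on-BRAFi at the left of each pair and pre-treatment at the right. The groups are apart in the 3 pairs with Cdh13 and overlap in the other 3.

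Of 9 catenin genes, whose products tie cadherins to actin and other partners, 4 were under the filter and none of the rest was called. Ctnnb1, which encodes beta-catenin, was at 123 ± 13.1 FPKM in on-BRAFi and 101 ± 9.26 FPKM in pre-treatment tumours. Ctnnd1, the catenin that holds cadherins at the surface, was at 43.7 ± 4.24 FPKM in on-BRAFi and 32.0 ± 1.33 FPKM in pre-treatment tumours, with a log2 fold change of 0.44 (limma, adjusted p = 0.0921). Of 5 tested catenins, 0 were called with limma, 1 had an unadjusted p under 0.05, and the median log2 fold change was 0.25. Jup, which encodes plakoglobin, was at 1.21 ± 0.33 FPKM in on-BRAFi and 0.998 ± 0.277 FPKM in pre-treatment tumours, and Pkp4, a plakophilin of adherens junctions, was at 4.41 ± 0.58 FPKM in on-BRAFi and 5.37 ± 1.81 FPKM in pre-treatment tumours.

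Of 14 tested junction linkers and nectins, 1 was higher and none lower, with a median log2 fold change of -0.12. It was Ablim1, an actin-binding LIM protein, at 7.14 ± 3.21 FPKM in on-BRAFi and 0.408 ± 0.0299 FPKM in pre-treatment tumours, a log2 fold change of 3.72 ± 0.44 (limma, adjusted p = 0.00295). Lima1, which links alpha-catenin to actin, was at 69.9 ± 13.6 FPKM in on-BRAFi and 42.9 ± 3.53 FPKM in pre-treatment tumours (limma, adjusted p = 0.0527). Iqgap1, a scaffold that binds beta-catenin, and the nectin gene Pvrl2 had log2 fold changes of -0.73 and 0.74 (limma, adjusted p = 0.0737 and 0.0974). Without on-BRAFi tumour 2, 3 genes of this list were called.

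Of 13 tested genes of cadherin shedding, processing and turnover, 3 were higher and 1 was lower, with a median log2 fold change of 0.51. Adam15, a membrane protease that can cleave E-cadherin, was at 17.3 ± 0.68 FPKM in on-BRAFi and 7.10 ± 1.42 FPKM in pre-treatment tumours (limma, adjusted p = 0.00669). Numb, an endocytic adaptor, was at 18.8 ± 1.41 FPKM in on-BRAFi and 8.17 ± 1.57 FPKM in pre-treatment tumours. Mmp14, a membrane metalloproteinase, was at 323 ± 97.5 FPKM in on-BRAFi and 117 ± 29.4 FPKM in pre-treatment tumours. Mgat5, which adds branched glycans to cadherins and other proteins, was at 3.28 ± 0.98 FPKM in on-BRAFi and 8.50 ± 2.99 FPKM in pre-treatment tumours (limma, adjusted p = 0.0359). The Mgat5 call was lost without any 1 of the 6 libraries (limma, adjusted p from 0.0736 to 0.108). Mmp14 was lost without pre-treatment tumour 2 or 3 or on-BRAFi tumour 1 (limma, adjusted p = 0.0621, 0.0596 and 0.0649), which left 2 called genes in the list each time.

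Of 11 tested repressors of E-cadherin transcription and their cofactors, 1 was higher and none lower, with a median log2 fold change of -0.10. Zeb2, a zinc finger repressor, was at 73.7 ± 10.03 FPKM in on-BRAFi and 40.5 ± 5.01 FPKM in pre-treatment tumours, a log2 fold change of 0.86 ± 0.18 (limma, adjusted p = 0.0196), and was not called without on-BRAFi tumour 1 or 2 (limma, adjusted p = 0.0678 and 0.0548). Without on-BRAFi tumour 1 no gene of this list was called. Snai2 was at 37.8 ± 11.5 FPKM in on-BRAFi and 21.2 ± 0.92 FPKM in pre-treatment tumours (limma, adjusted p = 0.0617). Twist1 and Kdm1a had log2 fold changes of -1.47 and -1.28 and were not called. With Cdh1 at 0 in 5 libraries, these levels can be set against no measured change of Cdh1.

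Of 51 other genes of the cadherin superfamily, 39 were under the filter, and 12 of these were listed at 0 in all libraries. Of the 12 tested, 3 were higher and none was lower, with a median log2 fold change of -0.17. Fat4, a giant cadherin of planar polarity, was at 32.6 ± 8.12 FPKM in on-BRAFi and 5.08 ± 0.51 FPKM in pre-treatment tumours, a log2 fold change of 2.64 ± 0.23 (limma, adjusted p = 0.0012). Cdh5, which encodes VE-cadherin of endothelial junctions, was at 14.9, 21.7 and 12.2 FPKM in on-BRAFi tumours 1 to 3, against 5.81, 5.37 and 4.84 FPKM in pre-treatment tumours 1 to 3. Cdh5 was higher in all 3 on-BRAFi libraries, with a log2 fold change of 1.55 (limma, adjusted p = 0.00783). It lay above Cdh13 in on-BRAFi tumours 1 and 2, was level with it in on-BRAFi tumour 3 and lay below it in all 3 pre-treatment libraries. Pcdh18, a protocadherin, was at 41.3 ± 5.16 FPKM in on-BRAFi and 23.1 ± 2.44 FPKM in pre-treatment tumours (limma, adjusted p = 0.0193), and was not called without on-BRAFi tumour 2 or 3 (limma, adjusted p = 0.0538 and 0.0523).

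**Figure D5:**
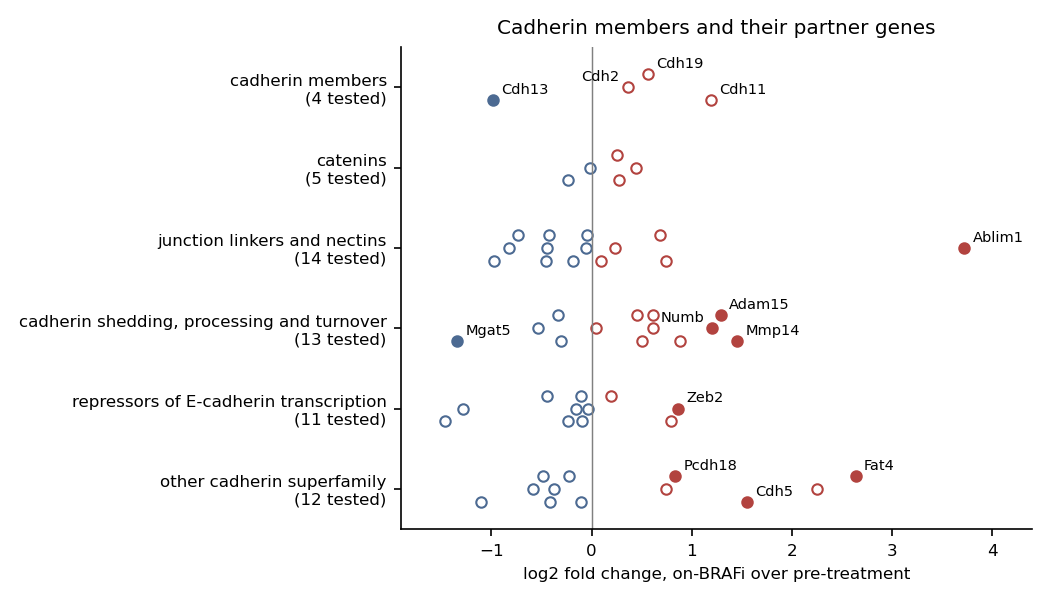
Log2 fold change, on-BRAFi over pre-treatment, of the tested cadherins and of the tested genes of 5 lists; each point is a gene, filled and named where called, and the 4 tested cadherins are all named. Cdh13 lies at -0.99, and the called genes with the highest values are Ablim1 at 3.72 and Fat4 at 2.64.

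Several of these genes lie next to another cadherin in the genome, by the order of protein-coding genes in RefSeq on GRCm38.p6, a later build than the mm9 of the submitters' processing notes. Cdh3 and Cdh1 are neighbours, and both were at or near 0. Cdh11 lies between Cdh8, listed at 0 in all libraries, and Cdh5. Cdh19, which had a value above 0 in every library, lies beside Cdh7, which was also listed at 0 throughout. Cdh6 lies beside Cdh9, which was listed at 0 in the 3 pre-treatment libraries and at 1.15, 0.908 and 0.665 FPKM in on-BRAFi tumours 1 to 3, whereas Cdh6 averaged 0.180 ± 0.117 FPKM in on-BRAFi and 0.462 ± 0.169 FPKM in pre-treatment tumours. No protein-coding gene of that annotation overlaps any of the 9, and none of the noncoding genes that do is in the table.

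For each tested cadherin, the other tested genes with the most similar profile over the 6 libraries were found by the root mean square difference of log2(FPKM + 0.1), centred on each gene's own mean. Nearest to Cdh13 were Lsm6, Acot9 and Mrpl50, at 0.11, 0.11 and 0.12. Nearest to Cdh2 were Slc1a5, Omd and Snai1, at 0.17, 0.18 and 0.18. Snai1, a repressor of Cdh1, was at 6.93, 11.1 and 15.7 FPKM in on-BRAFi tumours 1 to 3, against 13.0, 6.55 and 9.46 FPKM in pre-treatment tumours 1 to 3, and so was high in the same libraries as Cdh2. Nearest to Cdh19 were Acsf3, Mettl14 and AB124611, at 0.18, 0.18 and 0.20, and nearest to Cdh11 were Pcdhb18, Slc25a2 and Xkr8, at 0.16, 0.17 and 0.19. These are the closest of 10775 candidate genes over only 6 libraries, and no test of likeness was made.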

How the data were processed

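RNA from CD45-negative cells of 6 YUMM1.7 tumours was measured, 3 on-BRAFi and 3 pre-treatment. Libraries were poly(A)-selected and not strand-specific (TruSeq), per the labels' protocols, so genes that overlap on opposite strands share reads. The labels call the reads single-end in one place and paired-end in another. Values are FPKM for each gene symbol, as deposited. The builds and tools in the submitters' processing notes are mm9, Cuffnorm, Cuffdiff, TopHat and TopHat2, with no version given. Whole reads could not be recovered, so read depth is unknown and no count test was used. Each of the 6 columns was matched to a sample by its title.

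From the deposited FPKM, log2(FPKM + 0.1) was modelled in limma (3.58.1, under R 4.3.3) across all 12075 genes with a mean of at least 1 FPKM, with group as the only term, an intensity trend, two-sided tests and Benjamini-Hochberg adjustment over all of them. Fold changes are on-BRAFi over pre-treatment on that scale and understate the change of low genes. Ratios within a library were compared with an exact permutation test (scipy 1.17.1). The fit was also run on simulated data with known changes, and its outcome is not given here. Those changes were placed only in genes above a set level, with no scaling difference between libraries. That run therefore does not bear on low genes or on scaling. Named genes are the 9 members and up to 4 genes with the smallest p of each partner list. Up to 3 abundant genes of each marker list and the 3 most similar profiles were also named. Other genes were named after their values were seen, as defining markers, fibroblast markers not called, a pericyte marker called lower, neighbours or genes listed at 0. The members and lists were chosen with earlier results of these data known.

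Alternatives were pseudocounts of 1 and 0.01, no filter, a mean of at least 5 FPKM, scaling by the median of ratios, an equal FPKM total, quantile normalization, array weights, no trend, a block for the tumour number and each library left out. An equal total computed with short RNAs left out (symbols of microRNAs and of small nuclear, nucleolar and similar RNAs), and the ratios, were added after seeing the data.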

Additional observations from a re-analysis of the deposited data

How the results depend on the processing

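Cdh2 and Cdh19 kept their direction and were not called under any of 17 alternatives. Cdh11 passed in 1 of its alternatives, an equal library total with short RNAs left out (1.73), a setting chosen after seeing the data; with a mean of at least 5 FPKM it had no value. Leaving out each library gave log2 fold changes of 0.06 to 0.75 for Cdh2, 0.29 to 0.86 for Cdh19, 0.99 to 1.46 for Cdh11 and -1.24 to -0.82 for Cdh13. Cdh13 lost its call without a filter and without a trend (-0.99 each), with quantile normalization (-0.91), at an equal total (-0.44) and at an equal total less short RNAs (-0.39). In these fits except the last, 0 of the 9 cadherins were called; without a filter 8 entered the limma fit and 2 had an unadjusted p under 0.05. Between 0 and 1 was called without each library. The cause was not tested.

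Same-numbered tumours did not deviate together over the tested genes (correlations of -0.030, 0.012 and -0.090). That cannot show whether the numbers pair tumours, since a pairing need not leave a shared deviation, and the labels do not say. With the tumour number as a replicate block, Cdh13 was at -0.99 and not called, 0 cadherins were called, 500 genes were higher and 737 lower over the table, 2 pericyte markers were called, and Pcdh18 was not called.

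On the deposited values 1058 genes were higher and 1249 lower, 45.9% of calls higher. An equal total gave 2009 and 518 (79.5% higher), and 3799 and 682 (84.8%) less short RNAs. Leaving out each library gave 483 to 767 higher and 629 to 887 lower. An equal total called 1 catenin, 3 linkers, 2 repressors and 5 other cadherin genes, and less short RNAs 2, 4, 2 and 5, with 7 shedding genes and 7 pericyte markers. Quantile normalization called 2 catenins and 2 linkers, and array weights 3 linkers, 2 repressors and 5 other cadherin genes. Without a filter 2 catenins and 5 other cadherin genes were called. A pseudocount of 0.01 and the median of ratios each called 2 linkers. With a mean of at least 5 FPKM 4 endothelial and 2 pericyte markers were called. Other markers of both lists that were called in the reported fit lay under that mean and were not tested. Leaving out each library called 1 to 3 linkers, 2 to 3 shedding genes, 0 to 1 repressor, 2 to 4 other cadherin genes, 4 to 5 endothelial, 2 to 4 pericyte and 0 to 1 adipocyte markers. Pkp4 changed sign at an equal total (0.30), also less short RNAs (0.35), and ran from -0.41 to 0.020 with each library left out, positive without pre-treatment tumour 1. The log2 ratio of Cdh2 to Cdh19 changed sign without pre-treatment tumour 1 (0.47). A planned ratio of Cdh2 or Cdh11 to Cdh1 was not run, since Cdh1 was listed at 0 in 5 libraries. Without counts, no floor can be given for Cdh1, Cdh3, Cdh4 or Cdh15.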

Other observations

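Some relatives and partners of these cadherins lay under the filter and were not tested, but their groups did not overlap; they were named after their values were seen. Dchs1, whose product is the ligand of Fat4, was at 1.56, 1.02 and 1.47 FPKM in on-BRAFi tumours 1 to 3, against 0.540, 0.385 and 0.343 FPKM in pre-treatment tumours 1 to 3. Arvcf, a relative of Ctnnd1 that binds cadherin tails, was at 0.786, 0.637 and 0.980 FPKM in on-BRAFi tumours 1 to 3, against 0.0813, 0.103 and 0.0923 FPKM in pre-treatment tumours 1 to 3. Pcsk6, a proprotein convertase, was at 1.57, 0.914 and 0.397 FPKM in on-BRAFi tumours 1 to 3, against 0.0861, 0.0877 and 0.0206 FPKM in pre-treatment tumours 1 to 3. Others of these lists under the filter, among them Cdh9, Ctnna3, Mgat3 and Ptprf, also had groups that did not overlap. Of all tested genes, 40.4% had groups that did not overlap, a share that does not cover genes under the filter.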
